A study of Mus musculus with 9 samples.

Results

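The Hox cluster genes are the homeobox genes of the 4 mouse Hox clusters, and they were chosen as every probe whose array symbol is Hox followed by a cluster letter from a to d and a paralog number. The rule found 51 probes for 39 genes, of 25697 probes and 18120 symbols on the array, and the counts and values below cover 49 of these probes for 38 genes. They held 17 probes of cluster a, 13 of cluster b, 10 of cluster c and 9 of cluster d. All 38 symbols were found in the reference gene table.

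The samples were 9 pools of tissue from CD-1 mouse embryos at E10.5, in the middle of gestation, dissected from 3 litters with no mutation or treatment in any group. The otic vesicle (OV) is the closed epithelial sac that gives rise to the inner ear, and each OV pool held 20 of them. The periotic tissue was the surrounding mesenchyme with the hindbrain beside the ear, and embryo-minus-otic was the rest of the embryo after the greater otic region had been cut away. Each group had 3 pools, each hybridised to 1 array. Signals are given as log2 of the quantile-normalized bead signal, differences carry the standard error (SE) of the limma model, and *q* is the limma p-value adjusted over all probes by the Benjamini-Hochberg method. A probe counted as called at *q* under 0.05, and an array read it above background where its detection p was under 0.01. The precision rests on 3 arrays a group. The *q*-values rest on the spread between pools within groups, estimated over all 9 arrays in the limma model. These are bulk samples, in which fewer cells of a type and less RNA per cell cannot be told apart.

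Hox genes encode transcription factors that give cells their place along the head to tail axis. Their order on the chromosome runs parallel to the order of their domains, so that low paralog numbers reach furthest forward, into the hindbrain and the neural crest that leaves it, while higher numbers mark the neck, trunk, limbs and tail. The developing ear lies beside the hindbrain, where the front borders of the first 4 paralog groups fall. Hox proteins bind DNA together with Pbx and Meis proteins, and retinoic acid and Cdx proteins are known to act upstream of them.

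The tissue labels were set against marker lists. Of 18 otic epithelium probes, 13 were higher in OV than in periotic tissue and none was lower, while *Hmx3* was above background on no array. Of 10 hindbrain probes, 5 were higher in periotic tissue than in embryo-minus-otic (*Egr2*, *Olig3*, *Ptf1a*, *Wnt1* and *Irx3*) and 1 was lower (*Wnt8b*), while *Atoh1* and *Lmx1b* were above background on no array. The summed normalized signal of the heart muscle probes was 916 in OV replicate 1 and 492 in each other OV pool. Such sums include the signal of probes at background, since no background was subtracted. Red cell sums were graded, at 40697, 30266 and 16568 in OV replicates 1, 2 and 3. The values of replicate 1 are given with the Hox genes they touch. Between 43.9% and 47.3% of all probes were above background on each array.

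The Hox genes were detected most often in embryo-minus-otic tissue. Of the 49 probes, 27 for 23 genes were above background on all 3 embryo-minus-otic arrays, 11 for 8 genes on all periotic arrays and 4 for 3 genes on all OV arrays. Among all probes the shares above background were close to each other, at 41.1% in embryo-minus-otic, 42.5% in periotic tissue and 42.1% in OV. In all, 28 Hox probes exceeded background throughout at least 1 group, 17 were above background on no array, and 4 lay between. The 15 genes without a probe above background on all arrays of a group were *Hoxa3*, *Hoxa6*, *Hoxa10*, *Hoxa11*, *Hoxb8*, *Hoxb13*, *Hoxc4*, *Hoxc5*, *Hoxc8*, *Hoxc11*, *Hoxc12*, *Hoxc13*, *Hoxd1*, *Hoxd11* and *Hoxd13*. For these no tissue has a level measured on all of its arrays, which does not show that the RNA was absent.

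Detection differed by paralog number. Of the 16 probes of paralogs 1 to 4, 10 were above background on all periotic arrays, and in embryo-minus-otic 10 were. Of the 11 probes of paralogs 5 to 8, 0 were above background on any periotic array, while 7 were on all embryo-minus-otic arrays. Of the 22 probes of paralogs 9 to 13, 10 were above background on all embryo-minus-otic arrays and 1 on all periotic arrays, a *Hoxa13* probe. That probe was flat, between 6.29 and 6.60 on all 9 arrays and called in no comparison, and the other *Hoxa13* probes were above background on no array. All 9 genes of cluster c lacked a probe above background on all arrays of OV or of periotic tissue.

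**Figure D1:**
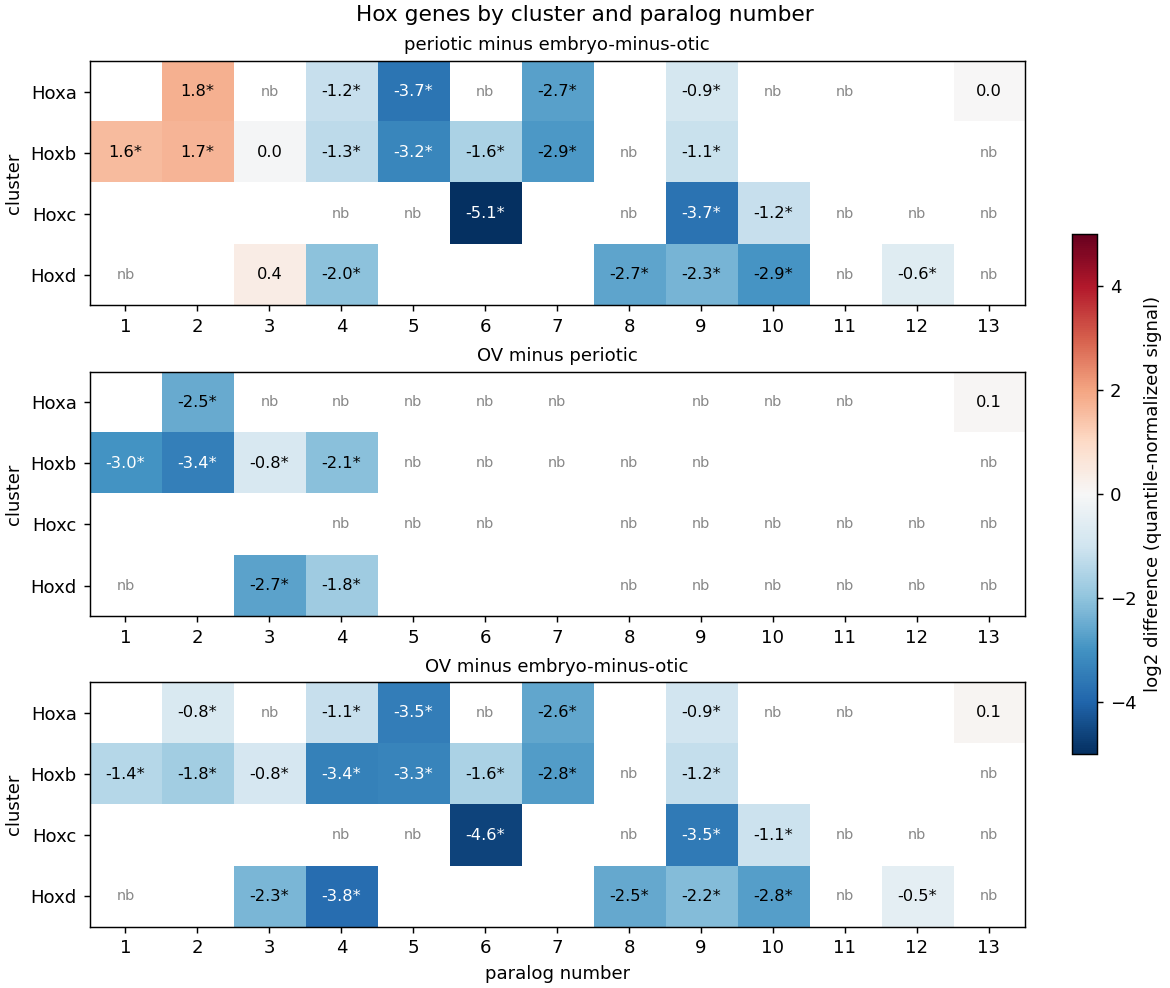
Log2 difference of each Hox gene in the 3 comparisons, with the clusters as rows and the paralog number on the x axis. Red is higher and blue lower in the tissue named first, an asterisk marks limma *q* under 0.05, nb marks genes where neither tissue was above background on all 3 arrays, and empty squares are positions with no gene in the mouse or with none shown. For genes with several probes, the one above background on most arrays is shown. Values are the fitted differences, also where 1 tissue was not above background. Called positive values lie at paralogs 1 and 2 of the upper panel, and every called value of the OV panels is negative.

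The first comparison set periotic tissue against embryo-minus-otic and asks which Hox genes the tissue around the ear carries. *Hoxa2*, *Hoxb1* and *Hoxb2* were higher in periotic tissue, with 5 of the 49 Hox probes called against 2.86% of all probes. On the other side, 20 probes for 18 genes were lower in periotic tissue, against 2.95% of all probes, and 15 of these differed by at least 2-fold when signals at background were given as a bound. The 5 higher probes all belonged to paralogs 1 and 2. The lower ones were 3 probes of paralogs 1 to 4, 7 of paralogs 5 to 8 and 10 of paralogs 9 to 13. Among the 10117 probes that both tissues showed above background on every array, 5 Hox probes were among the 50 highest differences in periotic tissue, with a *Hoxa2* probe at place 1, and 2 were among the 50 lowest.

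*Hoxa2* sets the identity of the second pharyngeal arch and is the Hox gene that reaches furthest forward in the hindbrain. Its probe ILMN_2874270 read 10.12, 10.44 and 10.37 in the periotic pools and 8.36, 8.70 and 8.57 in the embryo-minus-otic pools. In OV it read 7.88, 7.92 and 7.52. The 3 tissues did not overlap, and all 9 arrays were above background. Periotic tissue was 3.39-fold higher than embryo-minus-otic (log2 difference 1.76, SE 0.12, *q* = 1.9e-07). The second probe, ILMN_2618302, read 9.22, 9.64 and 9.26 in periotic tissue, 7.82, 7.76 and 7.77 in embryo-minus-otic, and 7.21, 7.37 and 7.13 in OV. It gave the same order of tissues, with a 3.01-fold difference between the non-otic groups (log2 difference 1.59, SE 0.11, *q* = 1.5e-07).

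*Hoxb2*, its paralog in cluster b, also acts in the hindbrain. It read 10.60, 10.74 and 10.52 in periotic tissue, 9.06, 9.09 and 8.67 in embryo-minus-otic, and 7.43, 6.90 and 7.24 in OV. Again no tissue overlapped another. It was 3.21-fold higher in periotic tissue than in embryo-minus-otic (log2 difference 1.68, SE 0.14, *q* = 8.5e-07).

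*Hoxb1* marks rhombomere 4, a segment of the hindbrain, and keeps its own expression there by acting on its own regulatory region. Its probe ILMN_2818750 read 8.53, 9.14 and 8.48 in periotic tissue and 7.43, 6.90 and 7.13 in embryo-minus-otic. In OV it read 5.69, 5.70 and 5.76, above background on no array. Periotic tissue was 2.96-fold higher than embryo-minus-otic (log2 difference 1.57, SE 0.16, *q* = 9.5e-06). Probe ILMN_1240198 gave 8.13, 8.57 and 8.02 against 7.19, 6.60 and 6.85, with 5.84, 5.73 and 5.66 in OV. That was a 2.57-fold difference between the non-otic groups (log2 difference 1.36, SE 0.15, *q* = 2.2e-05). The *Hoxd1* probe was above background on no array.

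The stretch just before the start of *Hoxb1* and of *Hoxa2* is printed because these genes moved together in periotic tissue, and that of *Hoxa5*, which was not above background there, stands beside them. Each run is the 250 bases before the RefSeq start on GRCm38.p6, given 5′ to 3′ on the gene's own strand. Capitals mark matches, on either strand, to the Hox and Pbx site TGATNNAT and the Meis site TGACAG. *Hoxb1* lies at chr11:96365508-96365757 on the plus strand, *Hoxa2* at chr6:52164832-52165081 on the minus strand and *Hoxa5* at chr6:52204588-52204837 on the minus strand.
Hoxb1: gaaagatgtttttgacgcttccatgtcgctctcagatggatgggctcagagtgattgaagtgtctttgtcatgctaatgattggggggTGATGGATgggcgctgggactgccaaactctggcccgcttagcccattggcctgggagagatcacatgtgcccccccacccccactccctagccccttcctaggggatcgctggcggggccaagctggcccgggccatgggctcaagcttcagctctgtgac
Hoxa2: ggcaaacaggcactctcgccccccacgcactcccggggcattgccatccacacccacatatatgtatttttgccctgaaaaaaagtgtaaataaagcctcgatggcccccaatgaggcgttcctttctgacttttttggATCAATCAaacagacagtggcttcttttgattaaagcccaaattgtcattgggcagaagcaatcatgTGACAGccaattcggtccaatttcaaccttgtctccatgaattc
Hoxa5: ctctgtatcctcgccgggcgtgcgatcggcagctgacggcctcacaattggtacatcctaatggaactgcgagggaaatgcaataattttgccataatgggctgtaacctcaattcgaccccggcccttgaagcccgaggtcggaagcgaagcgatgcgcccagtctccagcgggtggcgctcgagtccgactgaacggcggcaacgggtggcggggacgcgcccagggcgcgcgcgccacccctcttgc

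The *Hoxb1* and *Hoxa2* windows each held 1 match to TGATNNAT, and *Hoxa2* also held 1 match to TGACAG. Windows were at hand for 22 Hox genes, 24 windows in all, of which 4 held TGATNNAT (*Hoxa2*, *Hoxb1*, *Hoxb8* and a *Hoxd11* window) and 2 held TGACAG (*Hoxa2* and *Hoxa3*). Among all 32851 windows of the same length, 7.68% held TGATNNAT and 15.9% held TGACAG. No match to one motif overlapped a match to the other in the printed windows. A match is a description of these letters and not a measured binding site.

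Paralog group 3 sat between the groups that were higher and those that were lower. *Hoxd3* read 8.76, 8.81 and 8.35 in periotic tissue and 8.10, 8.36 and 8.32 in embryo-minus-otic, with overlap between the tissues. Its log2 difference was 0.38 (SE 0.12, *q* = 0.10), and without periotic replicate 3 it was 0.52 (*q* = 0.013). *Hoxb3* probe ILMN_3071262 read 6.78, 6.69 and 6.52 against 7.07, 6.33 and 6.71, a log2 difference of -0.04 (SE 0.15, *q* = 0.95). Probe ILMN_3150064 of the same gene read 6.36, 6.47 and 6.21 in periotic tissue and was not above background on the embryo-minus-otic arrays (*q* = 0.074). That probe was called higher in periotic tissue with neqc, another background correction and normalization (*q* = 0.027), and with a replicate block (*q* = 0.048). The third *Hoxb3* probe and both *Hoxa3* probes were above background on no array. These genes mark the hindbrain segments behind rhombomere 4, and a difference that misses the threshold does not show equal levels.

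Paralog group 4, whose domains begin in the last hindbrain segments, was lower in periotic tissue but still measured there. *Hoxd4* read 8.24, 7.74 and 7.61 in periotic tissue and 10.08, 10.09 and 9.54 in embryo-minus-otic, which was 4.11-fold higher (log2 difference -2.04, SE 0.22, *q* = 1.8e-05). *Hoxb4* read 8.29, 7.97 and 7.88 against 9.68, 9.12 and 9.25, which was 2.47-fold higher in embryo-minus-otic (log2 difference -1.30, SE 0.18, *q* = 1.7e-04). *Hoxa4* was above background on 1 of 3 periotic arrays and at least 2.16-fold higher in embryo-minus-otic (*q* = 2.4e-06), with the other arrays set at their lowest signal above background. None of the 3 overlapped between the tissues. *Hoxc4* stayed at background in both tissues.

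**Figure D2:**
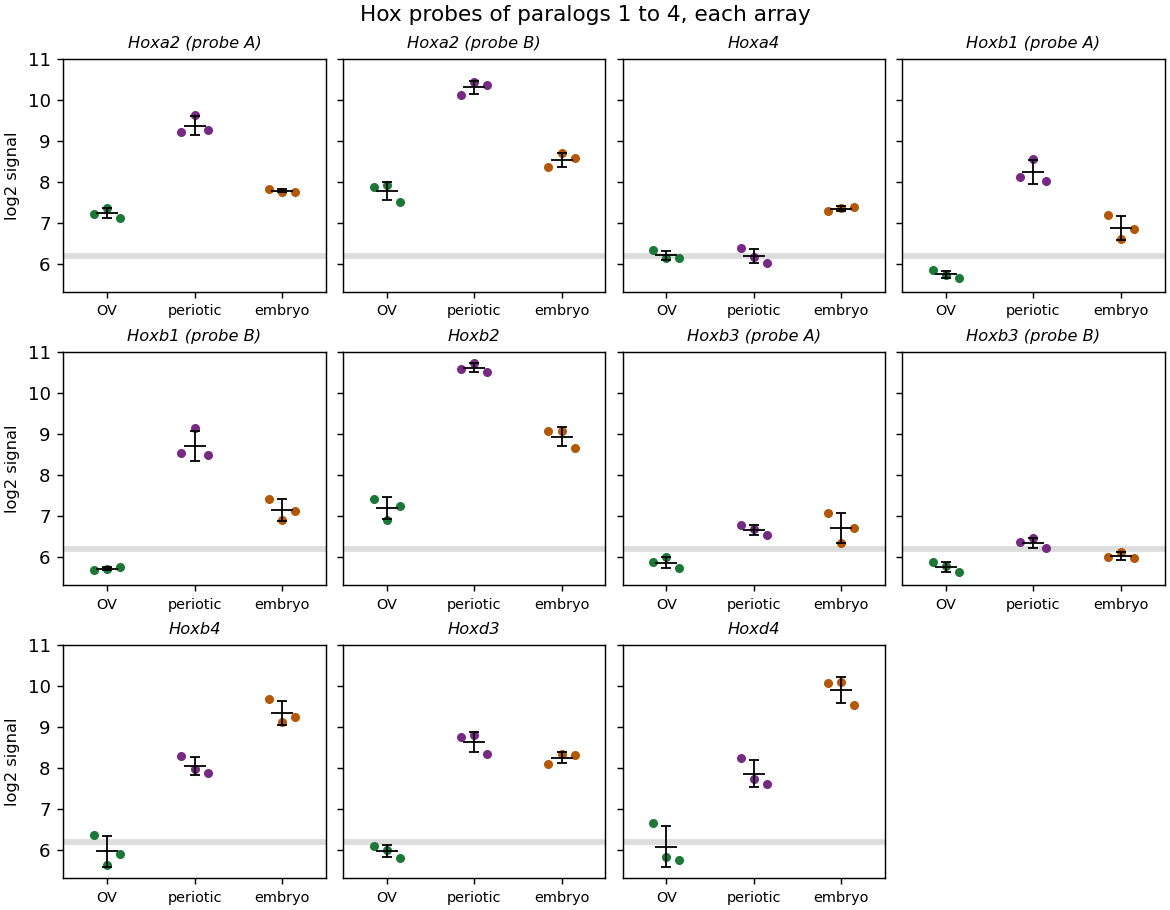
Log2 signal (y axis) of the 11 probes of paralogs 1 to 4 that exceeded background throughout at least 1 tissue, by tissue on the x axis. Points are arrays, bars are the mean and SD of 3 arrays, and the grey band spans the lowest signals above background on the 9 arrays. *Hoxa2* probes A and B are ILMN_2618302 and ILMN_2874270, *Hoxb1* probes A and B are ILMN_1240198 and ILMN_2818750, and *Hoxb3* probes A and B are ILMN_3071262 and ILMN_3150064. *Hoxa2*, *Hoxb1* and *Hoxb2* peak in periotic tissue, *Hoxa4*, *Hoxb4* and *Hoxd4* in embryo-minus-otic.

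From paralog group 5 on, no called probe was above background on all periotic arrays, and where none of the 3 was, the difference is a lower bound. It sets the embryo-minus-otic mean over the lowest signal above background on each periotic array, or over the probe's own signal where that was higher. Where only some arrays of the lower tissue were above background, the same bound is given, with the arrays at background set in this way. *Hoxc6*, which marks the level of the forelimb in the spinal cord and the body wall, read 10.52, 11.01 and 10.54 in embryo-minus-otic and 5.78, 5.53 and 5.55 in periotic tissue. It was at least 22.8-fold higher in embryo-minus-otic (*q* = 5.8e-10).

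*Hoxa5* and *Hoxb5*, genes of the neck and forelimb level, had bounds of similar size. *Hoxa5* read 9.20, 9.76 and 9.30 against 5.88, 5.88 and 5.56, at least 9.44-fold higher in embryo-minus-otic (*q* = 1.2e-09). *Hoxb5* read 9.21, 9.25 and 9.16 against 6.05, 5.91 and 5.93, at least 8.14-fold higher (*q* = 1.1e-09). *Hoxb6* was at least 2.25-fold higher (*q* = 3.1e-08). *Hoxa6* and *Hoxc5* were above background on no array.

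The genes of the thoracic level followed. *Hoxa7* read 8.91, 8.73 and 8.34 in embryo-minus-otic and 5.90, 6.0 and 5.91 in periotic tissue, a difference of at least 5.59-fold (*q* = 4.0e-09). *Hoxb7* read 8.59, 8.75 and 8.46 against 6.03, 5.52 and 5.62, at least 5.34-fold (*q* = 2.0e-09). *Hoxd8* read 8.36, 8.62 and 8.31 against 5.79, 5.89 and 5.65, at least 4.75-fold (*q* = 7.5e-10). In none of these genes did the tissues overlap.

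In paralog groups 9 and 10, 5 of 6 and 3 of 5 probes were called lower in periotic tissue, beside 2.95% of all probes. In groups 11, 12 and 13 it was 1 of 3, 1 of 2 and 0 of 6. *Hoxc9*, a determinant of thoracic motor neurons, read 9.44, 9.77 and 9.08 in embryo-minus-otic and 5.71, 5.86 and 5.66 in periotic tissue, at least 9.50-fold (*q* = 1.1e-09). *Hoxd9* read 8.08, 8.22 and 8.17 against 5.98, 5.66 and 5.89, at least 3.93-fold (*q* = 5.4e-09). *Hoxd10*, which acts in the limb bud and the lumbar cord, read 8.54, 8.87 and 8.61 against 5.80, 5.61 and 5.77, at least 5.62-fold (*q* = 5.8e-10).

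The remaining called genes of these groups had smaller bounds. *Hoxc10* was at least 2.64-fold higher in embryo-minus-otic by one probe and at least 2.10-fold by the other, which was above background on 1 periotic array. *Hoxb9* was at least 1.69-fold higher, *Hoxa9* at least 1.17-fold and 1.37-fold by its called probes, and *Hoxd12* at least 1.14-fold. *Hoxa11* was called (*q* = 0.016) with 2 of 3 embryo-minus-otic arrays above background, and it lost the call without embryo-minus-otic replicate 1 (*q* = 0.053), embryo-minus-otic replicate 2 (*q* = 0.061) or periotic replicate 1 (*q* = 0.062), and with neqc (*q* = 0.072) or median scaling (*q* = 0.095). Of paralog group 13, 0 of 6 probes were called by limma, with 0 at an unadjusted p under 0.05, and of paralog group 11, 1 of 3 was called.

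**Figure D3:**
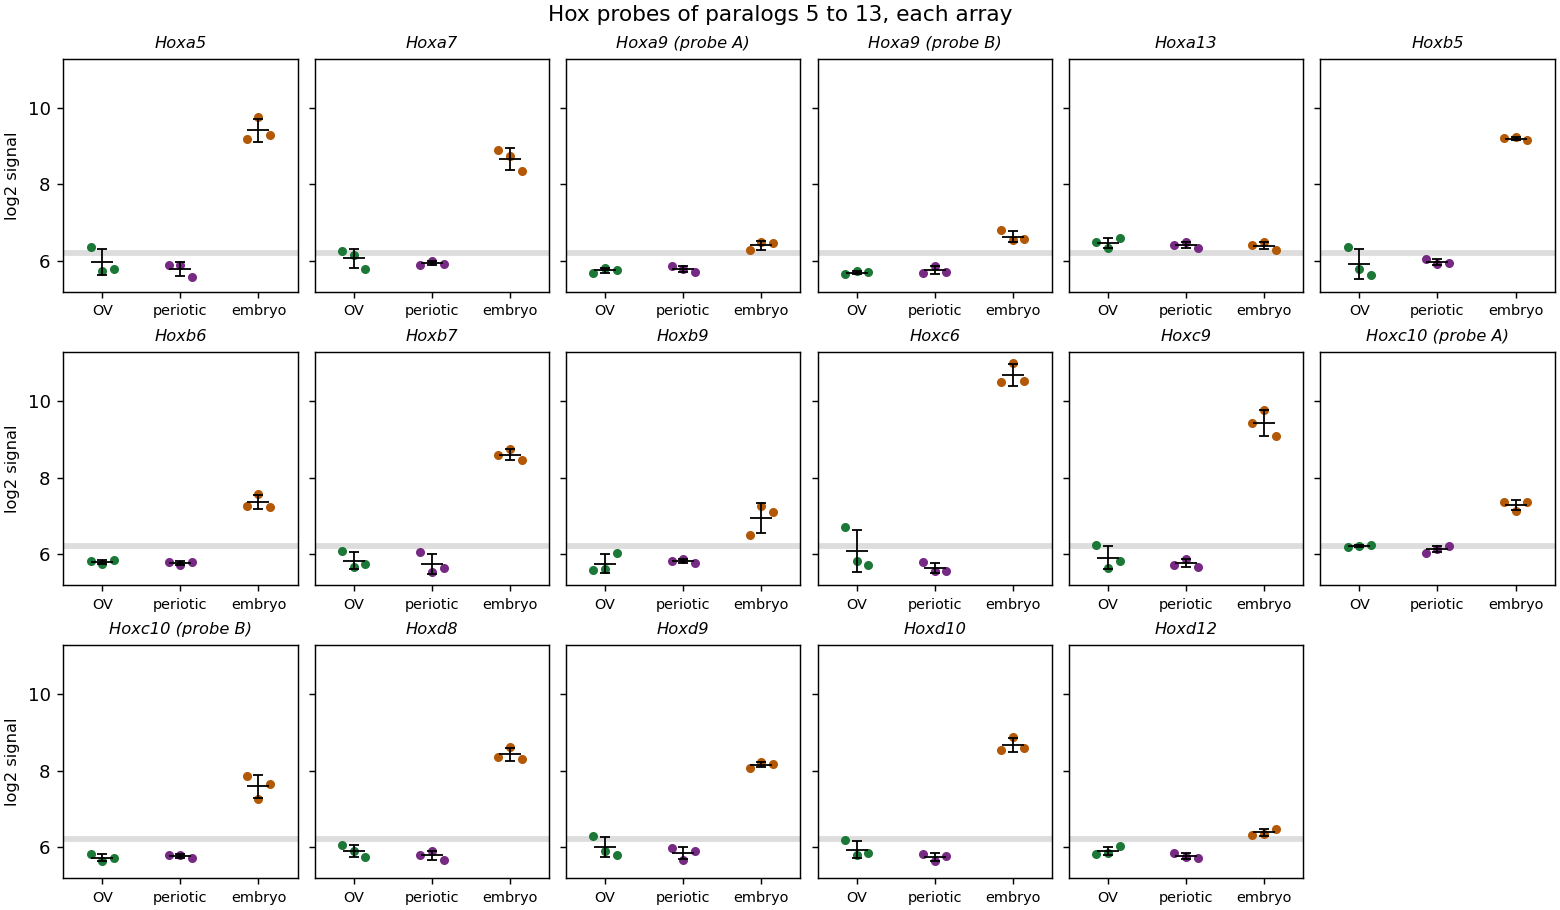
Log2 signal (y axis) of the 17 probes of paralogs 5 to 13 that exceeded background throughout at least 1 tissue, by tissue on the x axis. Points are arrays, bars are the mean and SD of 3 arrays, and the grey band spans the lowest signals above background on the 9 arrays. *Hoxa9* probes A and B are ILMN_1258462 and ILMN_2645155, and *Hoxc10* probes A and B are ILMN_2836885 and ILMN_2836888. All but the flat *Hoxa13* probe are higher in embryo-minus-otic than in the other tissues. In OV the point furthest to the left, replicate 1, is the highest for several genes.

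As a description of the groups, the median log2 difference between periotic tissue and embryo-minus-otic over all members was 0.11 for paralogs 1 to 4, -2.65 for paralogs 5 to 8 and -0.14 for paralogs 9 to 13, beside 0.01 over all probes. The first of these hides opposite directions within the class, and the last includes many probes without signal. Over paralog groups, the median did not fall steadily. It was 1.36 for group 1, 1.68 for group 2, 0.11 for group 3, -1.23 for group 4, -3.24 for group 5, -1.60 for group 6, -2.80 for group 7 and -0.17 for group 8. It was -1.0 for group 9, -1.16 for group 10, -0.01 for group 11, -0.26 for group 12 and 0.01 for group 13.

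Markers of the tissues also differed between periotic tissue and embryo-minus-otic, but the tail bud sums overlapped. The summed normalized signal of the 10 hindbrain probes was 3032 to 3569 in periotic tissue, against 1869 to 2216 in embryo-minus-otic. Of 10 tail bud and posterior body probes, 4 were lower in periotic tissue (*T*, *Cdx2*, *Tbx6* and *Fgf17*) and 1 was higher (*Wnt3a*), with sums of 1507 to 1566 in periotic tissue against 1293 to 1518 in embryo-minus-otic, and *Cdx4* was above background on no array. Of 13 limb bud probes, 3 were lower, with sums from 984 to 1095 against 1346 to 1453, while *Tbx4*, *Tbx5*, *Pitx1* and *Lmx1b* were above background on no array. Of 15 mesenchyme and neural crest probes, 8 were lower in periotic tissue and 0 higher by limma, with 2 higher at an unadjusted p under 0.05 and sums from 3272 to 3506 against 4523 to 5291. Of 9 heart muscle probes, 8 were lower, with sums from 472 to 508 against 7990 to 9097. Of 9 fore- and midbrain probes, 4 were lower, with sums from 589 to 655 against 1348 to 1384, while *Dmbx1*, *Emx2*, *Hesx1* and *Rax* were above background on no array. Of 10 erythroid probes, 2 were lower, with sums from 64321 to 74853 against 85134 to 92096. The part of the tissue make-up in the Hox differences was not tested.

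The second comparison set OV against the periotic tissue around it. *Hoxa2*, *Hoxb1*, *Hoxb2*, *Hoxb3*, *Hoxb4*, *Hoxd3* and *Hoxd4* were lower in OV, with 10 of 49 Hox probes called against 5.15% of all probes, and 8 of these differed by at least 2-fold. All 10 belonged to paralogs 1 to 4. No Hox probe was higher in OV by limma, against 5.07% of all probes, and 1 was at an unadjusted p under 0.05. That probe was *Hoxc6* (log2 difference 0.44), above background in OV replicate 1 only and on no periotic array. This comparison uses the same periotic arrays as the first, so they are not independent of each other.

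Among the Hox probes that both tissues showed above background on every array, *Hoxb2* had the largest difference and was 10.8-fold lower in OV (log2 difference -3.44, SE 0.14, *q* = 1.1e-10). *Hoxa2* was 5.80-fold lower by ILMN_2874270 (log2 difference -2.54, SE 0.12, *q* = 1.1e-09) and 4.40-fold lower by ILMN_2618302 (log2 difference -2.14, SE 0.11, *q* = 1.7e-09). Of the called Hox genes, only *Hoxa2* and *Hoxb2* were above background on all 3 OV arrays.

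*Hoxb1* was not above background in any OV pool and was at least 5.73-fold and 4.11-fold lower there by its 2 probes (*q* = 1.9e-09 and 9.4e-09). *Hoxd3* read 6.10, 6.01 and 5.81 in OV, above background on no array, and was at least 5.43-fold lower (*q* = 5.4e-10). The called *Hoxb3* probes were at least 1.38-fold and 1.11-fold lower.

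*Hoxb4* read 6.38, 5.63 and 5.90 in OV and was at least 3.44-fold lower than in periotic tissue (*q* = 5.2e-07). *Hoxd4* read 6.66, 5.82 and 5.76 and was at least 2.84-fold lower (*q* = 3.0e-05). For both genes only OV replicate 1 was above background. *Hoxa4* did not differ by the test (log2 difference 0.01), with 1 array above background in each tissue.

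Hindbrain, mesenchyme and blood markers differed in this comparison as well, with overlapping sums for the hindbrain. Of the 10 hindbrain probes, 4 were lower in OV, with sums from 2602 to 3182 against 3032 to 3569 in periotic tissue, and *Atoh1* and *Lmx1b* were above background on no array. Of 15 mesenchyme and neural crest probes, 6 were lower in OV and 1 was higher, with sums from 2461 to 2646 against 3272 to 3506, and *Tbx18* was above background on no array. Of 10 erythroid probes, 8 were lower in OV, with sums from 16568 to 40697 against 64321 to 74853, and *Gata1* was above background on no array. Their part in the Hox differences was not tested.

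The third comparison set OV against embryo-minus-otic. In OV, 27 Hox probes for 23 genes were lower, against 5.51% of all probes, and 17 of them differed by at least 2-fold when signals at background were given as a bound. By limma no Hox probe was higher in OV, against 5.89% of all probes, and 0 were at an unadjusted p under 0.05. The called probes were 10 of paralogs 1 to 4, 7 of paralogs 5 to 8 and 10 of paralogs 9 to 13. The median log2 difference over all members was -0.81 for paralogs 1 to 4, -2.54 for paralogs 5 to 8 and -0.11 for paralogs 9 to 13, beside 0.00 over all probes.

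*Hoxc6* read 6.69, 5.80 and 5.70 in OV and was at least 19.98-fold lower there (*q* = 5.8e-10). *Hoxd4* was at least 11.7-fold lower (*q* = 6.8e-09) and *Hoxb4* at least 8.49-fold lower (*q* = 2.7e-09). *Hoxa5*, *Hoxb5* and *Hoxc9* were at least 8.97-fold, 7.70-fold and 9.28-fold lower, with OV readings of 6.35, 5.74 and 5.79 for *Hoxa5*, 6.37, 5.77 and 5.62 for *Hoxb5*, and 6.23, 5.63 and 5.81 for *Hoxc9*. In all 6 genes replicate 1 was the only OV array above background.

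The other posterior genes had similar sizes in this comparison. *Hoxa7* read 6.26, 6.15 and 5.78 in OV and was at least 5.43-fold lower (*q* = 3.6e-09), and *Hoxd9* read 6.28, 5.90 and 5.79 and was at least 3.80-fold lower (*q* = 5.5e-09), each above background in replicate 1 only. *Hoxb7* (6.06, 5.66 and 5.72), *Hoxd8* (6.05, 5.88 and 5.73) and *Hoxd10* (6.17, 5.77 and 5.82) were above background in no OV pool. They were at least 5.27-fold, 4.69-fold and 5.55-fold lower in OV. The other called posterior genes were smaller, from at least 1.10-fold (*Hoxa11*) and 1.13-fold (*Hoxd12*) to at least 2.61-fold (*Hoxc10*), with *Hoxb6* at least 2.22-fold and *Hoxb9* at least 1.67-fold lower. The *Hoxa11* call (*q* = 0.012) was lost without embryo-minus-otic replicate 2 (*q* = 0.054) or OV replicate 2 (*q* = 0.063), and with neqc (*q* = 0.054) or median scaling (*q* = 0.088).

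The anterior genes were also lower in OV, *Hoxa2*, *Hoxb1* and *Hoxb2* by smaller differences than against periotic tissue. *Hoxb2* was 3.38-fold lower in OV than in embryo-minus-otic (log2 difference -1.75, SE 0.14, *q* = 2.2e-07). *Hoxa2* was 1.71-fold lower by one probe (*q* = 4.7e-04) and 1.46-fold by the other (*q* = 0.0032), calls that were lost when arrays were only scaled to a common median (*q* = 0.23 and 0.19). *Hoxb1* was at least 1.94-fold and 1.60-fold lower and *Hoxd3* at least 4.17-fold lower. *Hoxa4* was at least 2.13-fold lower (*q* = 1.1e-06), and 1 *Hoxb3* probe was at least 1.42-fold lower.

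Markers of other tissues also differed in this comparison, with hindbrain sums higher in OV although more hindbrain probes were called lower than higher. In OV, 11 of 15 mesenchyme and neural crest probes were lower and 1 was higher, with sums from 2461 to 2646 against 4523 to 5291 in embryo-minus-otic. Of 10 tail bud probes, 6 were lower and 1 higher, with sums from 727 to 812 against 1293 to 1518, and of 13 limb bud probes, 6 were lower, with sums from 759 to 805 against 1346 to 1453. Of 9 heart muscle probes, 8 were lower, with sums from 492 to 916 against 7990 to 9097, and of 10 erythroid probes, 8 were lower, with sums from 16568 to 40697 against 85134 to 92096. Of 9 fore- and midbrain probes, 4 were lower and 1 higher, with sums from 1061 to 1092 against 1348 to 1384, and of 10 hindbrain probes, 2 were lower and 1 higher, with sums from 2602 to 3182 against 1869 to 2216. Their part in the Hox differences was not tested.

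OV replicate 1 differed from the other OV pools in the posterior Hox genes. For the 15 Hox probes that were above background on all embryo-minus-otic arrays and on no periotic array, a set chosen without the OV arrays, 6 were above background in OV replicate 1, 0 in replicate 2 and 0 in replicate 3. Replicate 1 was the highest of the 3 OV arrays for 10 of these 15 probes, compared with 32.0% of all probes. The 3 paralog group 4 probes with signal in embryo-minus-otic were above background in replicate 1 only. For the 8 probes of paralogs 1 to 3 with signal, replicate 1 was the highest for 4, and the same number, 3, were above background in each OV pool.

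Heart muscle transcripts were also highest in OV replicate 1. Of the 7 heart probes with signal in at least 1 tissue, replicate 1 was the highest OV array for 7, and 5 were above background in replicate 1, 0 in replicate 2 and 0 in replicate 3. The summed heart signal was 916 in replicate 1 and 492 in each of replicates 2 and 3, against 472 to 508 in periotic tissue and 7990 to 9097 in embryo-minus-otic. The summed signal of the 15 posterior Hox probes was 1018, 825 and 829 in the OV replicates and 796 to 865 in periotic tissue. The erythroid sums were 40697, 30266 and 16568 in the OV replicates. Over the OV pools, limb bud sums ran from 759 to 805 and tail bud sums from 727 to 812. Of the 13 limb bud probes 4 exceeded background throughout at least 1 tissue, and of the 10 tail bud probes 6 did. All of these sums include probes at background, so small amounts of such tissue could be missed. The hindbrain sum was lowest in replicate 1, at 2602, against 3019 and 3182 in replicates 2 and 3. Of 58 other probes chosen by at least a 2-fold drop in periotic tissue and the same detection rule, 33 were highest in OV replicate 1. The part of other tissue in the Hox readings of this pool was not tested.

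**Figure D4:**
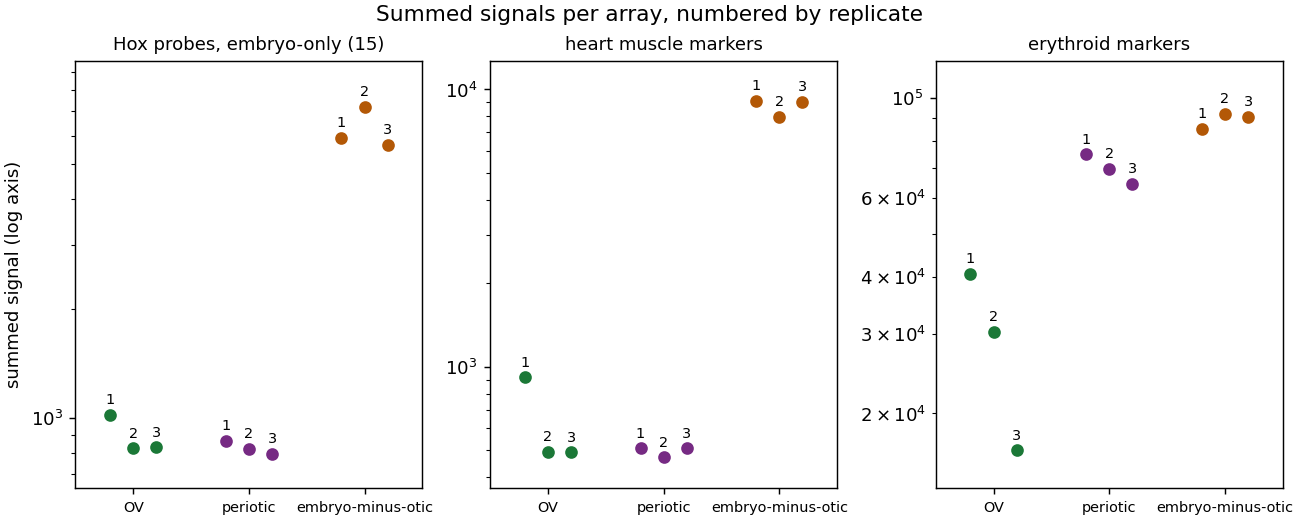
Summed normalized signal (y axis, log scale) of the 15 Hox probes above background in embryo-minus-otic but not in periotic tissue, of the heart muscle markers and of the erythroid markers, by tissue on the x axis. Each point is an array and carries its replicate number. OV replicate 1 is the highest OV array in all 3 panels, at 1018 for the Hox probes, 916 for the heart markers and 40697 for the erythroid markers.

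Without OV replicate 1, the Hox calls lower in OV were 10 against periotic tissue and 27 against embryo-minus-otic.

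The genes that lie just outside the Hox clusters were set beside them. The 3 nearest protein-coding genes with a probe on each side of each cluster were 24 genes with 33 probes. Between the non-otic tissues 1 of these probes was higher in periotic tissue, *Snx10* (log2 difference 0.64, *q* = 0.0071), beside 2.86% of all probes, and 0 were lower by limma, with 3 lower at an unadjusted p under 0.05. In OV 4 were lower than in periotic tissue, beside 5.15% of all probes, and 2 lower than in embryo-minus-otic, beside 5.51%, among them *Skap2* beside cluster a (log2 differences -0.67 and -0.93). The log2 differences of the 33 probes ran from -0.93 to 0.64 over the 3 comparisons. Several probes were above background on no array and could hardly differ, among them every probe of *Ttll6*, *Calcoco2*, *Skap1*, *Lnpk* and *Hnrnpa3*. *Evx1* and *Evx2*, homeobox genes at the ends of clusters a and d, were called in no comparison, and *Evx2* was above background on no array.

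Genes known to act with or upstream of Hox genes changed in part. Between the non-otic tissues, 4 of 22 upstream probes were higher in periotic tissue and 7 were lower. The higher ones were *Egr2*, a regulator of *Hoxa2* and *Hoxb2* in rhombomeres 3 and 5 (at least 2.94-fold, *q* = 4.9e-08), *Cyp26b1*, which degrades retinoic acid (at least 1.64-fold, *q* = 1.2e-05), *Wnt3a* (log2 difference 1.42) and *Gbx2* (log2 difference 0.53). The lower ones were 2 probes each of *Aldh1a2*, which makes retinoic acid, and of the receptor gene *Rarb*, and 1 each of *Cdx2*, *Fgf8* and *Rarg*. *Cdx2*, a regulator of trunk Hox genes, was at least 2.14-fold higher in embryo-minus-otic (*q* = 1.5e-06). *Cdx4* and *Tcf2* were above background on no array.

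In OV, 2 of these 22 probes were higher than in periotic tissue, *Gbx2* (log2 difference 2.19, *q* = 8.3e-10) and *Fgf8*, and 5 were lower. Of the 21 probes of Hox cofactors, 4 were lower in OV than in periotic tissue by limma and 0 higher, with 8 lower and 0 higher at an unadjusted p under 0.05. *Meis1* was 4.64-fold lower in OV than in periotic tissue (log2 difference -2.22, SE 0.12, *q* = 1.8e-09) and 3.76-fold lower than in embryo-minus-otic (log2 difference -1.91, SE 0.12, *q* = 1.2e-08). *Mrg1*, the array's name for *Meis2*, was 1.86-fold and 1.66-fold lower in these comparisons. Between the non-otic tissues only 1 cofactor probe was called, for *Pbx3* (log2 difference 0.43, *q* = 0.038), while another *Pbx3* probe gave 0.35 (*q* = 0.15).

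Of the 13 probes of Polycomb and other chromatin regulators of the Hox clusters, 0 were called between the non-otic tissues by limma, with 2 at an unadjusted p under 0.05. In OV, *Cbx2* was higher (log2 difference 0.76 against periotic tissue and 0.85 against embryo-minus-otic) and *Ring1* lower (log2 differences -0.62 and -0.49). Probes of *Ezh2*, *Eed*, *Suz12*, *Rnf2* and *Bmi1* were called in no comparison.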

How the data were processed

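RNA from 9 pools was amplified to biotin-labelled cRNA and hybridised to 1-colour Illumina MouseRef-8 v2.0 arrays. The authors deposited the average bead signal of each probe as an intensity not normalized between arrays, and a detection p-value from GenomeStudio. Whether background had been subtracted is not given in the sources used here, and the slide of each array was not analysed here. The lowest deposited signal of an array ran from 32.8 to 49.2, so the signals were not centred on 0. No background was subtracted before the main fit. Signals were log2 transformed with a floor of 1, which changed 0 values, and quantile normalized. All 25697 probes were fitted in 1 linear model of 3 groups with limma 3.58.1 in R 4.3.3 and adjusted by Benjamini-Hochberg over all probes in each comparison. Probes of a gene were not averaged. A Hox gene of the array that entered the fit is not reported here. The steps were tested on simulated data. For a probe at background in some or all pools of the dimmer group, the lower bound set those pools at each array's lowest signal above background, or at the probe's own signal if higher.

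The members and lists were chosen with earlier results of these data known. Values per array are given for the 16 called Hox probes with the largest difference and for the hindbrain paralogs. Other genes come from lists of cofactors, regulators, flanking genes and markers. Alternatives were neqc (offset 16), median or no scaling, array weights, a mean-variance trend, a replicate block, *q* under 0.01, a detection p under 0.05, detected probes only, and leaving out each array.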

Additional observations from a re-analysis of the deposited data

How the results depend on the processing

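The counts of Hox probes called in each direction stayed within 1.5 times the reported counts under every alternative run, from 19 to 20 probes lower in periotic tissue, from 5 to 6 higher, from 10 to 11 lower in OV than in periotic tissue, from 24 to 27 lower in OV than in embryo-minus-otic and 0 higher in OV. At a detection p under 0.05, 7 Hox probes were above background on all OV arrays in place of 4. The replicate block, for numbers that were not treated as pairs (correlations from 0.0080 to 0.18 over 9 pairs, with the same-numbered array correlating best in 16 of 18 cases), raised the probes higher in periotic tissue from 5 to 6 through *Hoxb3* ILMN_3150064 (log2 difference 0.32, *q* = 0.048) and changed no other Hox call. That probe was also called with neqc (log2 difference 0.66, *q* = 0.027).

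Medians over paralog classes moved more, and the cause was not tested. For periotic tissue minus embryo-minus-otic, the median of paralogs 1 to 4 was -0.010 without normalization and 0.38 over detected probes. That of paralogs 5 to 8 was -3.89 with neqc and -2.87 over detected probes, and that of paralogs 9 to 13 was -0.29 without normalization and -1.14 over detected probes. For OV minus periotic tissue, the median of paralogs 1 to 4 was -1.98 with neqc and -2.14 over detected probes, and that of paralogs 9 to 13 was 0.072 over detected probes and ranged from -0.021 to 0.033 with arrays left out. For OV minus embryo-minus-otic, the median of paralogs 1 to 4 was -1.21 with neqc and -1.14 over detected probes. That of paralogs 5 to 8 was -3.68 with neqc and -2.78 over detected probes, and that of paralogs 9 to 13 was -0.24 without normalization and -1.14 over detected probes.

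Differences that changed sign were uncalled and near 0. *Hoxa13* ILMN_3087004 was -0.074 (periotic tissue minus embryo-minus-otic) and -0.051 (OV minus embryo-minus-otic) without normalization. *Hoxb3* ILMN_3071262 was 0.086 between the non-otic tissues with median scaling. With arrays left out, they ranged from -0.025 to 0.071 for *Hoxa13* and from -0.22 to 0.15 for *Hoxb3* between the non-otic tissues, and from -0.0076 to 0.12 for *Hoxa13* in OV minus periotic tissue. Calls lost under an alternative concerned *Hoxa11* and *Hoxa2*. Signals at background limit the called posterior genes in OV and periotic tissue to bounds.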
